A study of Saccharomyces cerevisiae with 328 samples.

Results

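The 10 genes described here, ERG10, ERG13, HMG1, ERG1, ERG11, ERG25, ERG6, ERG2, ERG3 and ERG5, encode enzymes of ergosterol synthesis in budding yeast, Saccharomyces cerevisiae. They were taken by gene name from the deposited tables and are 10 of the 4922 genes with any value. All 10 passed the filter for testing, a value in at least 80% of strains, which left 4499 genes. PolyA RNA of 328 strains, each lacking 1 open reading frame, was sequenced with 1 library per strain during exponential growth, after overnight culture, dilution and a few divisions. Every value is the log2 ratio of a deletion strain to the wild type strain, so that 1 is a 2-fold higher and -1 a 2-fold lower level. The files do not state the log base, which was taken as log2. By its title, the study concerned how growth rate relates to the expression of genes for protein and amino acid synthesis.

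The labels name each strain only by the systematic name of the deleted open reading frame; strain background, mating type and medium are not stated there, and nothing says how many clones each strain stands for. Grouped by what the deleted gene is known to do, 18 deletions hit small ribosomal subunit proteins, 14 hit large subunit proteins and 6 hit Mediator, a coactivator complex of transcription. A further 19 strains lacked a chromatin factor, 16 an endosomal or vacuolar factor, 7 a factor of protein insertion into or traffic from the endoplasmic reticulum (ER), 6 a factor of sterol or sphingolipid metabolism, 9 a factor of phospholipid metabolism or transport, 13 a mitochondrial factor and 4 a factor of iron or copper handling. All remaining strains, called other deletions, were the reference for these classes. The strains of a class carry different deletions, so the spread within a class holds real differences between deletions as well as error. Wild type enters every value, and the labels do not say how many wild type libraries were used.

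Ergosterol is the main sterol of fungal membranes, where it takes the place that cholesterol has in animals. Its synthesis starts with acetyl-CoA and the mevalonate pathway, passes through squalene and lanosterol, and ends with a series of demethylation, methylation, isomerization and desaturation steps, several of which use heme and oxygen. When sterols run low, the transcription factors Upc2 and Ecm22 activate many of the genes through the sterol regulatory element, whose core reads TCGTATA. In the order of the pathway, ERG10 encodes acetoacetyl-CoA thiolase, ERG13 the synthase that makes hydroxymethylglutaryl-CoA, and HMG1 one of the reductases that turn it into mevalonate, the step that statins inhibit. ERG1 encodes squalene epoxidase, ERG11 the lanosterol demethylase that azole antifungals inhibit, and ERG25 a sterol methyl oxidase. The late steps are those of ERG6, a sterol methyltransferase, ERG2, a sterol isomerase, ERG3, a sterol desaturase, and ERG5, a further desaturase of the sterol side chain.

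The core motif TCGTATA, searched on both strands of the 500 bases before the annotated start of each gene, was found at 6 of the 10 genes, against 420 of 6000 yeast promoters (7%). The windows of 30 bases around it are shown because these genes are the ones followed through the strains below, and those of ERG28 and CYB5, other genes of the sterol pathway, because both were among the highest transcripts of the ERG2 deletion. Each window is from the RefSeq genome of build R64, reads 5′ to 3′ along the strand of the gene, and has the motif in capitals, as TCGTATA on the strand of the gene or TATACGA on the other.
ERG13, chrXIII:20731-20760, minus strand: cggaataagctTCGTATAtacaatagaaaa
ERG13, chrXIII:20618-20647, minus strand: gggctattaatTATACGAgtgtgttgaaag
ERG1, chrVII:848787-848816, minus strand: gtagcgggcctTCGTATAgctcggccgagc
ERG25, chrVII:610070-610099, plus strand: actgcctccctTCGTATAcgggacacagag
ERG25, chrVII:610090-610119, plus strand: ggacacagagaTCGTATAcggtaaacgact
ERG6, chrXIII:253404-253433, minus strand: agccccgatctTCGTATAtggtacctcgtt
ERG2, chrXIII:667341-667370, plus strand: aaccacggcccTCGTATAagccgcaaggaa
ERG3, chrXII:253524-253553, plus strand: caaccggggtgTATACGAggccgatggctg
ERG3, chrXII:253564-253593, plus strand: aaaattcaggcTCGTATAagtggcacaata
ERG28, chrV:238276-238305, minus strand: taacctaatctTATACGAactgaattaaac
CYB5, chrXIV:417559-417588, minus strand: aaaaagaaagcTATACGAgatcgagatagt
The motif began 382 bases before the start of ERG1, 432 before that of ERG6, 483 and 463 before that of ERG25, and 326 and 286 before that of ERG3, and it was nearest to the start in ERG13 and ERG2. ERG13, ERG25 and ERG3 thus held 2 copies each. No copy was in these windows of ERG10, HMG1, ERG11 and ERG5. Of the other genes of the pathway, 1 of 6 in the mevalonate list (ERG8) and 2 of 10 in the list of other sterol enzymes and partners held it. The longer binding motif of the heme-responsive factor Hap1, a pair of CGG triplets around a spacer with TA, searched on both strands, was in none of the 10 windows and in 21 of 6000 promoters (0.35%). A match is a run of letters and not a measured binding site.

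Some facts of the whole series bear on all values. Of 258 strains whose deleted gene could be checked, 200 had it empty or more than 0.5 below the median of their library group, and 58 did not; none of the 58 was in the sterol or sphingolipid class. The strains fell into 4 groups of 80, 73, 96 and 79, here called library groups. They were found by a mixture model on principal components of genes outside the 10 and outside the pathway lists. These groups held 38.9% of the variance of the genes used. They are clusters of expression profiles, and the labels name no batch for them. Some classes were spread unevenly over them: 4 of 6 Mediator strains were in group 4 and 9 of 18 small subunit strains in group 3. Subtracting group means can thus also remove effects of the deletions. What sets the groups apart was not tested. A whole chromosome was shifted by over 0.4 in 17 strains. The 5 genes on chromosome XIII (ERG13, HMG1, ERG6, ERG2 and ERG5) were not on a shifted chromosome in any strain, where the largest shift was 0.105. The sequencing depth of the libraries is unknown.

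Across the strains most ergosterol genes were below the wild type level, and 8 of the 10 had a mean below 0, against 62.4% of all genes tested. The median of all genes in a strain ran from -0.45 to 0.31, with a median of -0.13, and with it subtracted the mean was below 0 for the same number, 8 of 10. Because wild type is in every ratio, a shift shared by the strains cannot be told apart from a wild type reference in which these transcripts were high. Over all strains 14.9% of the values of the 10 genes were at most -1, against 8% of the values of all genes, and 0.641% were at least 1, against 4.26%. The ERG2 value of the ERG2 deletion was left out of these counts and of all means.

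In the mevalonate part of the pathway, ERG10 (XVI, 498096 to 499292 in R64) averaged -0.40 ± 0.29 (SD, n = 328 strains), with the lowest value at -1.31, the median at -0.41 and the highest at 0.43. The highest ERG10 value was in the strain lacking ARV1, a gene of sterol transport out of the ER. ERG13 (XIII, 19060 to 20535) averaged -0.93 ± 0.61 (SD, n = 328), from -3.18 through a median of -0.97 to 0.85. It had the widest spread of the 10 genes, and 47.3% of its values were at most -1. HMG1 (XIII, 115734 to 118898) averaged -0.25 ± 0.51 (SD, n = 325), from -1.69 through -0.23 to 0.96; it had no value in the SGF29, ASF1 and MVP1 deletions.

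In the squalene and lanosterol steps, ERG1 (VII, 846933 to 848423) averaged -0.62 ± 0.31 (SD, n = 328), from -1.50 through -0.65 to 0.40. ERG11 (VIII, 120091 to 121683) averaged -0.66 ± 0.34 (SD, n = 328), from -2.16 through -0.64 to 0.56. These enzymes act before and after the closure of the sterol rings, and both were below 0 in nearly all strains, ERG1 in 317 and ERG11 in 321. ERG25 (VII, 610564 to 611493) averaged 0.13 ± 0.56 (SD, n = 328), from -1.77 through 0.15 to 1.86, and was below 0 in 39.6% of strains. It held 17 of the 21 values of at least 1 that the 10 genes had.

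Among the late steps, ERG6 (XIII, 251839 to 252990) averaged -0.50 ± 0.43 (SD, n = 328), from -1.72 through -0.50 to 1.07. ERG2 (XIII, 667537 to 668205) averaged -0.92 ± 0.32 (SD, n = 327), from -2.33 through -0.89 to -0.07, below wild type in all 327 strains in which the gene was present. ERG3 (XII, 253861 to 254958) averaged -0.68 ± 0.35 (SD, n = 328), from -1.57 through -0.67 to 1.50. The last desaturase, ERG5 (XIII, 300869 to 302485), averaged 0.04 ± 0.38 (SD, n = 328), from -2.36 through 0.07 to 1.29, and was below 0 in 42.1% of strains. Ordered by mean ratio from the lowest, the genes were ERG13, ERG2, ERG3, ERG11, ERG1, ERG6, ERG10, HMG1, ERG5 and ERG25, and each mean lay within 1 SD of its neighbours in that order.

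**Figure D1:**
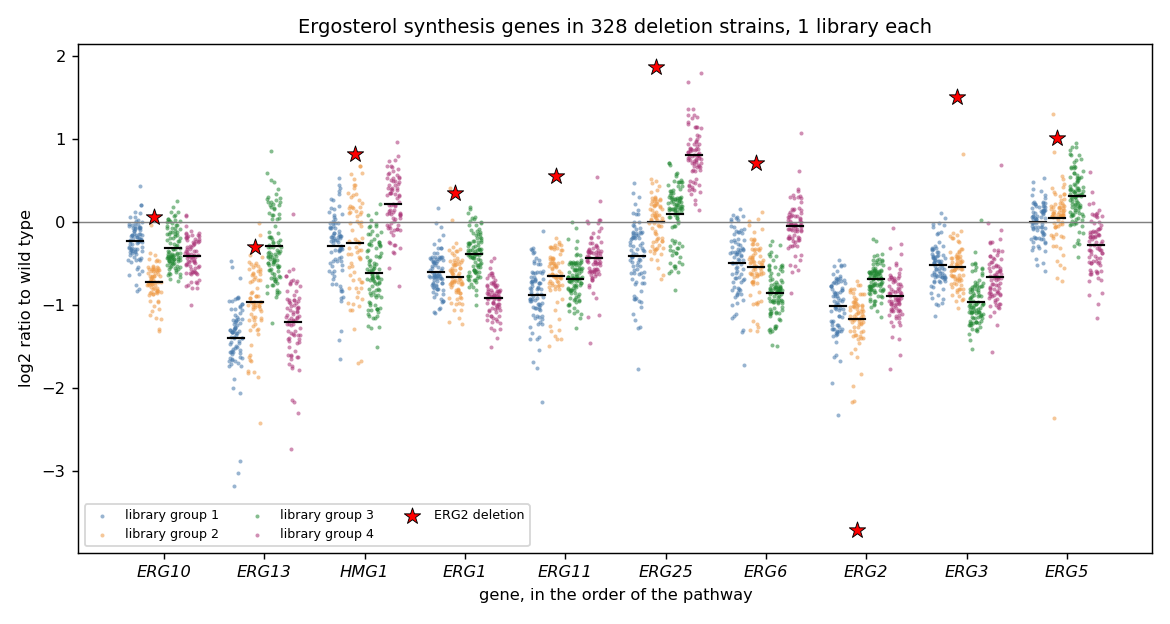
Log2 ratio to wild type (vertical axis) of the 10 ergosterol genes in pathway order (horizontal axis), 1 point per strain, in 4 colours for the library groups. Short lines are the means of each library group without the ERG2 deletion, which is marked by a star: it is the highest strain for ERG11, ERG25 and ERG3 and the lowest for ERG2, and the ERG25 points of library group 4 (mean 0.81) sit above those of group 1 (mean -0.41).

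The library groups took a larger share of the variance of 9 of the 10 genes than of the median gene, which was 25.2%: from 60.2% for ERG25 and 51.4% for ERG13 down to 20.9% for ERG11. The genes did not follow the groups in 1 direction. ERG13 averaged -1.39 in library group 1, -0.95 in group 2, -0.29 in group 3 and -1.20 in group 4. ERG6, in contrast, was lowest in group 3 at -0.85 and highest in group 4 at -0.04, and HMG1 likewise ran from -0.61 in group 3 to 0.21 in group 4. ERG5 had the opposite order to ERG6, with 0.31 in group 3 and -0.28 in group 4. Because of this, values of the ERG2 deletion and of the other sterol and sphingolipid strains are given below on 2 scales, as deposited and with the library group mean subtracted. Values of single genes in the other strains are as deposited unless stated, so they carry the mean of their library group.

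In the strain lacking ERG2, the sterol isomerase, most of the other ergosterol genes were higher than in nearly every other strain. ERG2 itself had a log2 ratio of -3.70 in this strain, the lowest of all 328, where the other strains ran from -2.33 to -0.07. Of the other 9 genes, 3 were at least 1 above wild type, where 2.69% of all genes in this library were; with the mean of its library group (73 strains) subtracted, 5 of 9 were at least 1, where 0.519% of all genes were, and 9 of 9 at least 0.5, where 6.59% were. The median of the 9 was 0.71 as deposited and 1.06 with the group mean subtracted, against -0.12 and 0.01 over all genes. With 1 library there is no replicate and no test for this strain.

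ERG25 and ERG3 stood highest. ERG3, the desaturase that acts after the isomerase, was at 1.50 in the ERG2 deletion, while no other strain exceeded 0.82 and their median was -0.68. ERG25 was at 1.86, with the highest other strain at 1.79 and a median of 0.15. ERG11 was at 0.56, just above the next strain at 0.54, and the median of the others was -0.64. For these 3 genes the ERG2 deletion was the highest of all strains, and for 4 more, ERG5 at 1.00, HMG1 at 0.81, ERG6 at 0.71 and ERG1 at 0.35, it was the second highest. How many of all genes in this library ranked so high was not counted. As deposited, the first enzymes of the pathway ranked lower: ERG10 was at 0.05 and ranked 15th, and ERG13 was at -0.30 and ranked 44th. With the library group mean subtracted, ERG10 stood 0.77 above it, the highest of all strains, and ERG13 stood 0.66 above it and ranked 13th. The order of the genes from the highest was then ERG3 (2.02), ERG25 (1.84), ERG6 (1.24), ERG11 (1.19), HMG1 (1.06), ERG1 (0.99), ERG5 (0.95), ERG10 and ERG13. Of the genes with the core motif, ERG3, ERG25 and ERG6 were at the top of this order, ERG1 was further down and ERG13 at its end. The genes without it, ERG11, HMG1, ERG5 and ERG10, lay between ERG6 and ERG13.

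Other genes of the pathway were read in the same library, again relative to the library group mean. All 10 of the other sterol enzymes and partners were above it and 8 were at least 0.5 above it, with a median of 0.69. CYB5, which encodes the cytochrome that passes electrons to sterol-modifying enzymes, stood at 1.64, and ERG28, a scaffold of the demethylation complex, at 1.51. NCP1, the reductase that serves ERG11 and ERG1, stood at 0.98, and ERG4, the last reductase of the pathway, at 0.94; ERG28 and ERG4 were higher than in any other strain on this scale. DAP1, a heme-binding partner of ERG11, was the lowest of this list at 0.01. In the mevalonate and isoprenoid list, by comparison, 2 of 6 were at least 0.5 above the group mean and the median was 0.12. MVD1 (also called ERG19), the decarboxylase of that pathway, stood at 0.61 and ERG8, a kinase, at 0.60, while HMG2, the second reductase gene, stood at -0.03 and the mevalonate kinase gene ERG12 at -0.18.

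Genes around the pathway lay on both sides of their group means in this library, where 7.2% of all genes were at least 0.5 below. Of the regulators, 5 of 8 had a value and 0 were at least 0.5 above the group mean, with ECM22 at -0.28 and 1, the repressor gene MOT3, at -0.53; UPC2 had too few values to be read. In sterol storage and transport 1 of 8 passed 0.5, ARE1, an enzyme that esterifies sterols, at 0.72, and in fatty acid synthesis 0 of 7 did, with the elongase gene ELO1 at -0.73. Of the heme and hypoxic genes 1 of 9 passed, HEM13, an enzyme of heme synthesis, at 0.79, and 3 were at least 0.5 below: the cytochrome c genes CYC7 at -1.29 and CYC1 at -0.74, and HEM3, another enzyme of heme synthesis, at -0.64. Singled out after the values were seen, the transcript farthest above its group mean was TIR1, a cell wall mannoprotein gene of anaerobic and cold growth, at 4.70, followed by GSC2, a glucan synthase subunit, at 2.29 and ATF2, an acetyltransferase that acts on alcohols and sterols, at 2.19. ERG3 and ERG25 came next in that order, and CYB5, ERG28 and ERG6 were also among the first 9. Below its group mean by the most after ERG2 was RPO41, the mitochondrial RNA polymerase, at -1.54.

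**Figure D2:**
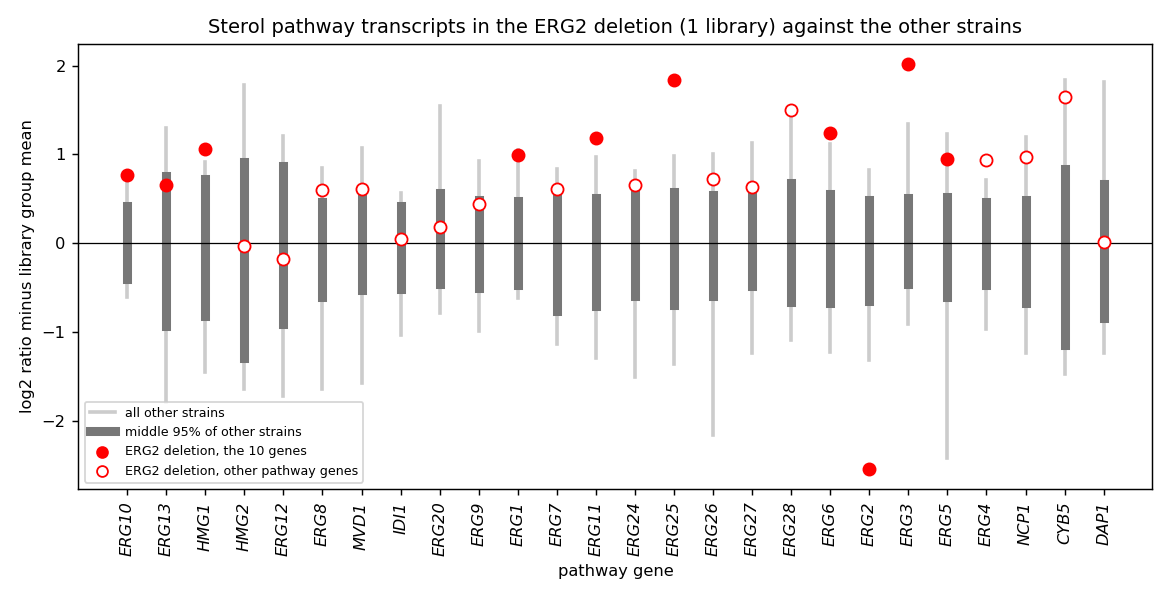
Log2 ratio minus the mean of the library group (vertical axis) of genes of the sterol pathway (horizontal axis) in the ERG2 deletion, with filled circles for the 10 genes and open circles for other pathway genes. Grey lines give the range of all other strains and dark bars their middle 95%: ERG3 (2.02), ERG25 (1.84) and ERG28 (1.51) are above the range of the others, and HMG2 (-0.03) and DAP1 (0.01) are within it.

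Averaged over the ergosterol genes, the ERG2 deletion was the only strain above wild type, at 0.73 over the 9 other genes, while the median strain was at -0.47 and the lowest at -1.20. The averages of the other strains, here and below, include ERG2, which averaged -0.92, so the sets of genes were not alike. After the median of all genes in a strain and the library group mean were subtracted, the average over the ergosterol genes was 1.26 in the ERG2 deletion and at most 0.40 in the other strains, with an SD of 0.176 over all strains. The next strains were those lacking TAF14, a subunit of TFIID and of chromatin remodelers, at 0.40, YJL218W at 0.38, SWI5 at 0.35 and RHO4 at 0.34. As deposited, their averages were -0.25, -0.31, -0.23 and -0.38, which ranked 23rd, 47th, 15th and 97th from the highest. The TAF14 deletion had the lowest median over all genes of any strain, -0.45. In the TAF14 deletion no gene of the 10 was at least 1 above wild type, and the values ran from -0.81 (HMG1 and ERG2) to 0.21 (ERG13 and ERG25). The other strains among the 10 highest lacked LEM3, a partner of phospholipid flippases, VAC17, VID22, YJL175W and RPN4, the activator of proteasome genes, and lay between 0.31 and 0.32. The deleted gene could not be checked in the YJL218W, RHO4 and YJL175W deletions, and chromosome III was shifted in the VID22 deletion. RPN4 had the highest ERG13 value of all strains, 0.85, beside an ERG11 value of -1.16.

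At the low end, ERG13, ERG11 and ERG2 were each at most -1 in the 3 lowest strains, and the other genes varied between them. The strain lacking ASC1, a scaffold protein of the small ribosomal subunit, was the lowest at -0.74, followed by RFU1, a regulator of ubiquitin recycling, at -0.59, ASF1, a histone chaperone, at -0.54, and HPM1, a methyltransferase of a ribosomal protein, at -0.42. The others of the 10 lowest lacked RPL8A, BUB1, SRB8, HMO1, URM1 and RPL21B and lay between -0.35 and -0.30. URM1 was not lowered in its own strain (0.01 relative to the median of its library group). BUB1 and SRB8 had too few values to check, and chromosome XI was shifted in the SRB8 deletion. In the ASC1 deletion 6 of the 10 genes were at most -1, in a library where 15.6% of all genes were. ERG13 was at -3.18 there, its lowest value, with ERG2 at -1.94, HMG1 at -1.42 and ERG11 at -1.41, while ERG5 was at 0.53. The RFU1 deletion had 5 of the 10 genes at most -1, against 20.5% of all genes. It held the lowest values of ERG11 (-2.16), ERG25 (-1.77), ERG6 (-1.72) and ERG2 (-2.33), and ERG13 was at -3.02, but ERG1 was at -0.06, ERG3 at 0.10 and ERG5 at 0.32. In the ASF1 deletion 4 genes were at most -1, against 21.7% of all genes, with ERG5 at -2.36, the lowest of all strains, ERG2 at -2.17, ERG13 at -1.60 and ERG11 at -1.25; ERG6 was at 0.03. The 3 strains thus shared 3 low genes, and each had a large share of all genes at least 1 below wild type. Values of at most -1 were common for some of these genes: 47.3% of strains had one for ERG13, 35.8% for ERG2 and 13.7% for ERG11.

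**Figure D3:**
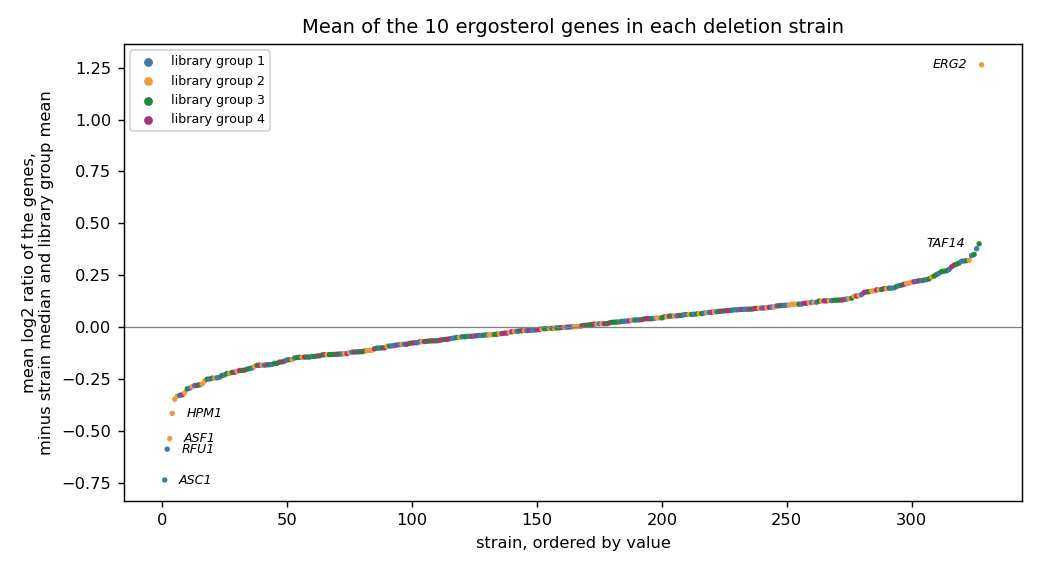
Mean log2 ratio of the ergosterol genes minus the median of the strain and the library group mean (vertical axis) for 328 strains ordered by that value (horizontal axis), coloured by library group. The ERG2 deletion, with ERG2 left out, is alone at 1.26, the TAF14 deletion is next at 0.40, and ASC1 (-0.74), RFU1 (-0.59), ASF1 (-0.54) and HPM1 (-0.42) are at the low end.

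A few strains, singled out after their values were seen, were extreme for single genes. The strain lacking PHO86, an ER protein that exports the phosphate transporter, had the highest ERG5 value of all strains, 1.29, and the highest ERG1 value, 0.40, with ERG3 at 0.82; in the same library 6.91% of all genes were at least 1, and 4 of the 10 ergosterol genes, among them ERG11 at -1.17 and ERG2 at -1.38, were at most -1, where 11.6% of all genes were. MEH1, a subunit of the vacuolar EGO complex, gave the second highest ERG25 value, 1.79, beside ERG1 at -1.28. This strain was in library group 4, where ERG25 averaged 0.81 and ERG1 -0.92. With those means subtracted, ERG25 was at 0.99 and ERG1 at -0.36. The KRE28 deletion had the second highest ERG11 value, 0.54, and its chromosome VIII, which carries ERG11, was shifted by 0.74. HRD1, the ubiquitin ligase of the ER known to act on sterol enzymes at the protein level, gave ordinary values when deleted, with HMG1 at -0.45 and ERG1 at -0.74. Deletions near an ergosterol gene left it within the range of the other strains: ERG3 was at -0.70 in the IES3 deletion, 4 open reading frames away, and ERG2 at -0.64 and -0.79 in the PFK2 and HFA1 deletions, 3 and 5 open reading frames away.

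No ergosterol gene differed between classes of deleted genes past the threshold. In a limma F-test over the 10 classes 0 of the 10 genes passed an adjusted p of 0.05 (Benjamini-Hochberg over 4499 genes), where 0.845% of all genes did; 4 of the 10 had an unadjusted p under 0.05, where 12.6% of all genes had one, and ERG1 had the smallest adjusted p, 0.115. Against the other deletions, 0 of 10 passed in each of the 10 classes, where the share of all genes called was 1.4% for the small subunit, 0.2% for the large subunit, 0.111% for phospholipid, 0.0667% for Mediator and 0.0445% for endosome and vacuole, and 0 for the other classes. At an unadjusted p under 0.05, 10 of the 100 differences of the 10 genes over all classes were found, where the share of all genes ran from 2.76% (mitochondrial) to 18.4% (small subunit) with a mean of 7.29% over the classes. The wider pathway was alike: of 52 genes on the lists of mevalonate, other sterol enzymes, regulators, storage and transport, fatty acid and heme genes, 46 were tested and 0 were called in any class. A p that misses the threshold does not show that the levels were equal, and the 95% interval of a difference reached 0.282 to either side for the best measured class (chromatin, at its widest) and 0.594 for iron and copper.

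In the sterol and sphingolipid class all 10 estimates were above 0, from 0.07 to 0.41, with a median of 0.16 against -0.05 over all genes, but this sign rested on the ERG2 deletion. Without that strain 5 of the 10 estimates were below 0 (ERG25 at -0.27, ERG11 and HMG1 at -0.05, ERG6 at -0.04 and ERG5 at -0.03), and the median was 0.01. The 6 strains lacked ERG2, ARV1, ISC1 (a sphingolipid phospholipase), ELO3 (a fatty acid elongase of sphingolipid synthesis), PDR11 (a sterol importer) and NSG2 (a partner of the HMG-CoA reductases), and the deleted gene was lowered or empty in all but PDR11, which had too few values to check. ERG1 ran from -0.70 through a median of -0.18 to 0.35, and its mean was 0.39 ± 0.13 (SE) above the other deletions with a limma adjusted p of 0.959. ERG10 ran from -0.42 through -0.06 to 0.43 and was 0.32 ± 0.12 (SE) higher, with the same adjusted p. The strains overlapped the other deletions for every gene. ERG3 ran from -0.9995 through -0.50 to 1.50 and was 0.41 ± 0.14 (SE) higher, but without the ERG2 deletion the difference was 0.05, whereas ERG1 kept 0.28 and ERG10 0.30.

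The ARV1 deletion was the highest of all strains for ERG10 at 0.43, with ERG1 at -0.15, ERG2 at -0.73 and ERG13 at -0.98. In the ISC1 deletion ERG13 was at 0.27 and ERG5 at 0.59, while ERG11 was at -1.04. ELO3 gave HMG1 at -1.04 and ERG25 at 0.48, NSG2 gave HMG1 at 0.28 and ERG13 at -1.06, and PDR11 gave ERG13 at -1.44 and ERG25 at -0.89. With the library group mean subtracted, ERG13 was at -0.48 in ELO3, -0.05 in PDR11, 0.33 in NSG2, 0.41 in ARV1 and 0.56 in ISC1. On that scale ARV1 had ERG10 at 0.66, ERG1 at 0.45 and ERG2 at 0.28, and ISC1 had ERG5 at 0.27 and ERG11 at -0.35. HMG1 was at -0.43 in ELO3 and 0.57 in NSG2, and ERG25 at 0.38 in ELO3 and -0.48 in PDR11. As deposited, ERG2 ran from -1.28 to -0.53 and ERG3 from -0.9995 to -0.46 in these 5 strains, within the range of the other deletions.

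Among the other classes, small differences with an unadjusted p under 0.05 were seen for ERG6, ERG3, ERG10 and ERG1, and none passed adjustment. In the small subunit class 2 of 10 had such a p, where 18.4% of all genes did, in the large subunit class 2 of 10 against 8.6%, in the endosome and vacuole class 2 of 10 against 7.78%, and in the ER class 1 of 10 against 3.18%. In small subunit deletions ERG6 ran from -1.26 through -0.73 to -0.10 and was lower than in other deletions by an estimate of -0.26 ± 0.10 (SE, limma adjusted p 0.146), below their median in 14 of 18 strains. ERG3 differed there by -0.19 ± 0.08 (SE, limma adjusted p 0.195), below the median in 15 of 18. The median difference over all genes in this class was itself -0.07. Large subunit deletions had ERG10 at -0.23 ± 0.08 (SE, limma adjusted p 0.342) and ERG6 at -0.28 ± 0.12 (SE, limma adjusted p 0.471) relative to the other deletions, with ERG6 below their median in 12 of 14 strains. With library group as a term, the small subunit differences were -0.18 for ERG6 and -0.09 for ERG3. The large subunit ones were -0.20 for ERG10 and -0.21 for ERG6. With each strain also centred on its median, the small subunit differences were -0.14 for ERG6 and -0.04 for ERG3. The large subunit ones were then -0.21 for ERG10 and -0.23 for ERG6. Of the 18 small subunit strains, 9 were in library group 3, where ERG6 and ERG3 were lowest.

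ER insertion and traffic deletions had ERG1 from -1.50 through -0.85 to -0.74, below the median of the other deletions in 7 of 7 strains, an estimated difference of -0.33 ± 0.12 (SE, limma adjusted p 0.989). The strains lacked GET2 and GET3, which insert tail-anchored proteins, SEC66 and SND3 of other insertion routes, HRD1, and the vesicle proteins SEC22 and SEC28. Most sterol enzymes are themselves proteins of the ER membrane. In endosome and vacuole deletions ERG1 differed by -0.18 ± 0.08 (SE, limma adjusted p 0.610) and ERG6 by 0.23 ± 0.11 (SE, limma adjusted p 0.618); with library group as a term these were -0.09 and 0.09, and that of ERG1 in the ER class was -0.25. Chromatin, Mediator, phospholipid, mitochondrial, and iron and copper deletions had no gene of the 10 at an unadjusted p under 0.05; ERG13 had the largest estimate of these, 0.48 in the 4 iron and copper deletions.

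**Figure D4:**
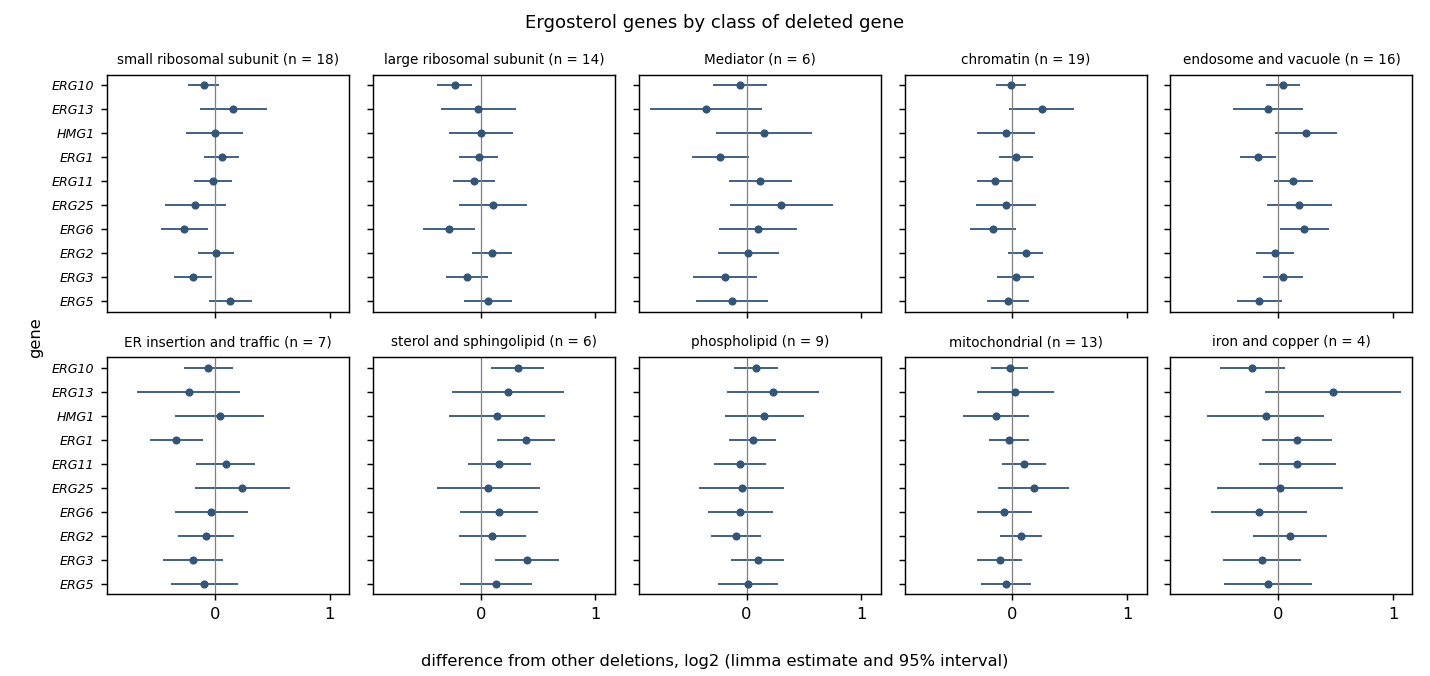
Difference of each ergosterol gene (vertical axis) between a class of deletions and the other deletions on the log2 scale (horizontal axis), 1 panel per class, as the limma estimate with lines for its 95% interval. Most intervals include 0 and none of the differences passed adjustment; in the sterol and sphingolipid panel the 10 estimates lie between 0.07 and 0.41, and without the ERG2 deletion 5 of them were below 0.

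Across strains the ergosterol genes varied together only in part. Over the 45 pairs, Spearman's correlation across up to 328 strains had a median of 0.083, from -0.49 to 0.67, where the median over all pairs of 2142 genes with a value in every strain was 0.062. With library group means subtracted the median was 0.183, from -0.27 to 0.55, with 37 of 45 pairs above 0, and that of all gene pairs was 0.026; without the ERG2 deletion it was 0.176. All strains are set against wild type and fall into the library groups, so these are descriptions of the strains and no test is given.

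The closest pair was ERG11 and ERG25, which act in the same demethylation stretch of the pathway, at 0.67 as deposited and 0.55 with group means subtracted. ERG6 joined ERG13 (0.44), ERG2 (0.42) and ERG10 (0.41) once group means were subtracted; the pair with ERG13 was at -0.24 before. ERG6 also had the highest correlation with the mean of the other genes, 0.56, followed by ERG13 at 0.46 and ERG2 at 0.42. ERG5 stood apart, at -0.02 to the mean of the others and at -0.27 to ERG25 and -0.25 to ERG11, and ERG1 was next at 0.18.

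**Figure D5:**
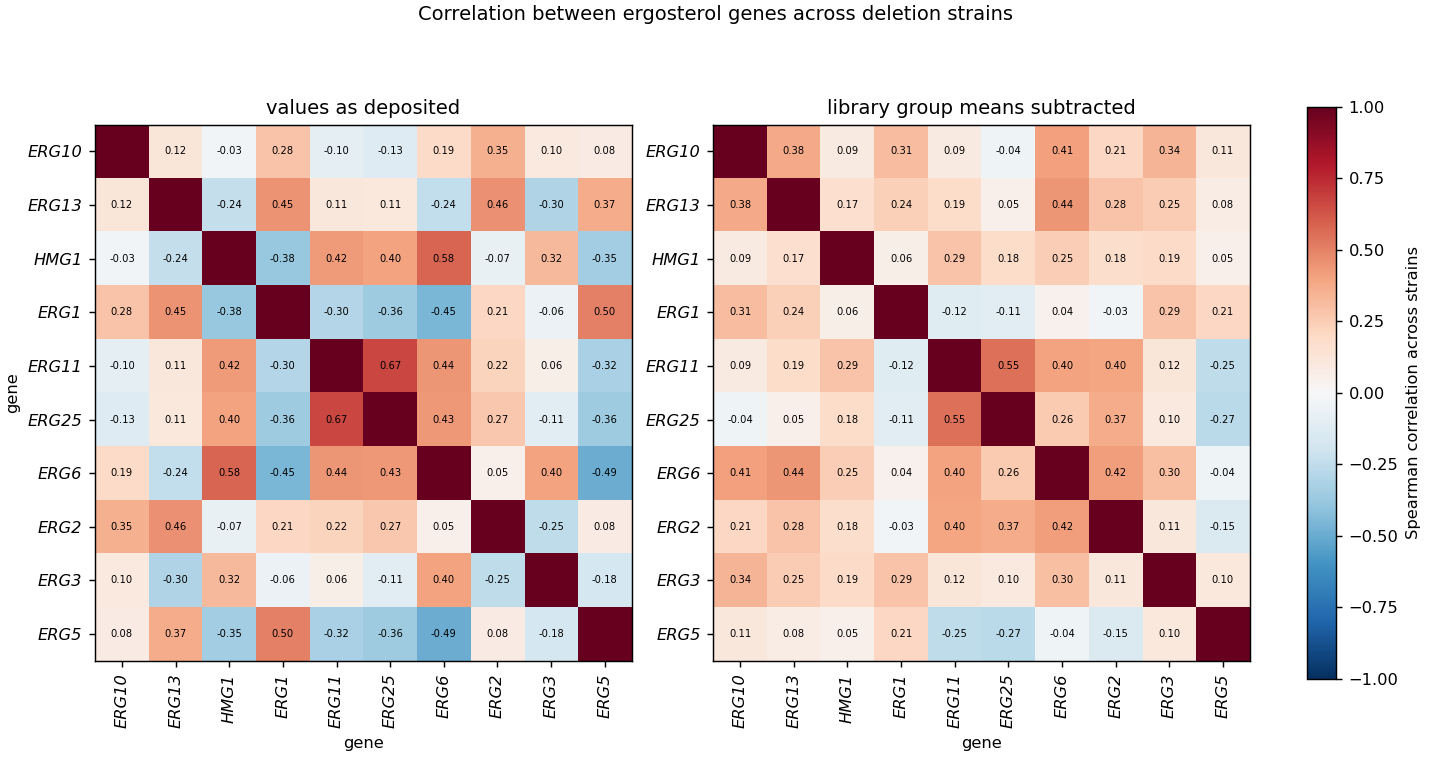
Spearman correlation across strains between each pair of ergosterol genes (both axes list the genes in pathway order), on the left for the values as deposited and on the right with library group means subtracted; red is positive and blue negative. ERG11 and ERG25 are the closest pair in both panels (0.67 and 0.55), and ERG5 is negative with ERG25 and ERG11 in both.

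Outside the 10 genes, those most like their mean over the strains, with group means subtracted, were mostly not sterol genes. CYS3, an enzyme of cysteine synthesis, had a Spearman correlation of 0.69 with that mean, ILV6, a subunit of acetolactate synthase, 0.65, and the actin gene ACT1 0.64. The next were PAB1 (poly(A)-binding protein), SSA2 (a heat shock chaperone), ZWF1 (the entry enzyme of the pentose phosphate pathway), CPR1 (a cyclophilin), YDR154C, RNQ1 and SMT3 (the yeast SUMO), from 0.61 to 0.59; YDR154C overlaps CPR1, and their reads cannot be told apart. The lowest 3 of 4489 genes encode ribosomal proteins, RPS23B at -0.69, RPL42B at -0.66 and RPL27A at -0.66, and each has a near-identical copy in the genome. Of the other pathway genes NCP1 was at 0.48 and HMG2 at 0.37, ERG28 was at -0.04, and IDI1, the isomerase of isoprenoid synthesis, was at -0.42, where the median of all genes was 0.02.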

How the data were processed

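PolyA RNA of 328 deletion strains was sequenced, 1 library each. The deposited tables hold log2 ratios to wild type made by the authors; the base is not written, and was taken as log2 because chromosome shifts reach 0.933, above the 0.693 and 0.301 of a doubling in natural or base 10 logarithms. Per the submitters' processing notes, Bowtie was used. The Bowtie version, genome build, counting method and normalization were not given in the sources used here. Depth is unknown, so no counting interval is given.

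The second table (73 strains, no gene column) was matched to the first (255 strains) by row position; gene means of the tables correlated at 0.979 with no offset and at most 0.0463 at offsets of up to 5 rows. Empty cells stayed missing. Of 4499 genes tested, 4420 matched the R64 annotation by name.

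The 10 genes, the lists and the classes were chosen with earlier results of these data known. Classes rest on the function of the deleted gene. The value of a deleted gene in its own strain was set to missing. All classes were set against the other deletions in a single limma fit (limma 3.58.1, R 4.3.3; lmFit, eBayes), with Benjamini-Hochberg adjustment over all genes and a threshold of 0.05; the fit was tested on simulated data. P-values measure the spread between strains, which have 1 library each. Library groups came from a Gaussian mixture of 4 groups on 4 principal components with 10 starts; a fit of 5 groups had a lower BIC (6735 against 6814). Strains named are the 10 highest and lowest by the adjusted mean of the genes, the sterol class, and deletions within 5 open reading frames; PHO86, MEH1, KRE28 and HRD1 were chosen after their values were seen, and SEC66, SEC22 and MRS3 by the test for outlying strains. All 10 genes are named, and genes most like their mean are the 10 highest and 3 lowest. Alternatives were centring strains on their median, library group or table as a term, complete genes only, no strains with shifted chromosomes, other references, and each strain of a class left out in turn. Python 3.11.15, pandas 2.3.3, numpy 2.4.6 and scikit-learn 1.9.0 were used.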

Additional observations from a re-analysis of the deposited data

Results flagged for a closer look

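Within the classes of 4 to 10 strains, 50 sets of values, 1 gene in 1 class each, were searched for a strain far from the others by Dixon's test, and 4 were found; chance alone flags about 1 in 20. ERG3 in the sterol and sphingolipid class was at 1.50 in the ERG2 deletion, where the other 5 strains lay between -0.9995 and -0.46. ERG13 in the ER class was at -2.87 in the strain lacking SEC66, a subunit of the translocon that moves proteins into the ER, where the other 6 lay between -1.18 and -0.49. ERG1 in the same class was at -1.50 in the strain lacking SEC22, a vesicle fusion protein of ER to Golgi traffic and the lowest ERG1 value of all strains, where the other 6 lay between -1.04 and -0.74. ERG10 in the iron and copper class was at -0.87 in the strain lacking MRS3, a mitochondrial iron carrier, where the other 3 lay between -0.56 and -0.51. Each is a single library, and none was tested further.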

How the results depend on the processing

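The count of ergosterol genes called stayed at 0 in every setting run, for the F-test (10 settings, smallest adjusted p 0.0652) and for each class (10 alternatives, and 93 fits without 1 strain of a class); the smallest adjusted p of any of the genes was 0.0757, in the small subunit class. Leaving out each chromatin strain was not run. In the ERG2 deletion 3 of 9 genes were at least 1 above wild type. That count became 5 with the library group mean subtracted, while the share of all genes at least 1 went from 2.69% to 0.519%. ERG6, ERG11 and HMG1, whose group means were below 0, came to at least 1, and ERG5 went from 1.00 to 0.95. The 10 class differences with an unadjusted p under 0.05 kept their sign in every setting run. Other values changed sign. ERG13 in the ERG2 deletion went from -0.30 as deposited to 0.66 with the library group mean subtracted. Some pair correlations changed sign with group means subtracted, such as ERG13 with ERG6, from -0.24 to 0.44. Without the ERG2 deletion, 5 estimates of the sterol and sphingolipid class fell below 0. Over all genes the calls moved more: the F-test called 38, from 28 without strains with a shifted chromosome to 72 with library group as a term, and the small subunit class 63 (1.4% of genes), from 0.667% to 3.13% in the same 2 settings. With single strains left out, the small subunit share ran from 0.445% to 3.62%, the large subunit count of 9 from 4 to 13, the Mediator count of 3 from 0 to 4, the endosome and vacuole count of 2 from 0 to 4 and the phospholipid count of 5 from 2 to 10; library group as a term gave 8 for Mediator, 4 for endosome and vacuole and 21 for phospholipid. Library group with centring, and leaving out strains whose deleted gene was not lowered, were added after seeing the data. No paired analysis was possible because the labels give no replicate numbers. With unknown depth and 1 library per strain, no error can be given for a single strain's value.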
